A study of Mus musculus with 58 samples.

Results

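Fully grown mouse oocytes lacking Pcgf1 and Pcgf6 were compared with control oocytes across all genes, using the 4 oocyte RNA libraries of a series of 58 samples. The knockout (KO) group was labelled Pcgf1/6 double knockout and gave 2 libraries. The control (CTR) group was labelled wild type and gave 2 libraries. Both groups came from mice of the B6.129 strain and from oocytes at the full-grown stage, and the 4 libraries were chosen by these labels alone. The labels give neither the driver of the deletion nor the exons removed, and neither the age of the mice nor the number of oocytes per RNA library. Nothing in the labels says that the libraries of a genotype came from separate mice, so p-values measure only the spread between these samples, which may be technical.

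PCGF1 and PCGF6 are RING-finger subunits that define different variants of Polycomb repressive complex 1 (PRC1). PCGF1 joins KDM2B and BCOR or BCORL1 in the PRC1.1 variant, which is known to bind unmethylated CpG islands. PCGF6 joins MGA, MAX, E2F6 and L3MBTL2 in the PRC1.6 variant, which is known for the silencing of germ-line and meiosis genes in embryonic stem cells. Both variants carry the enzymes that place ubiquitin on histone H2A, a mark of genes held silent. A fully grown oocyte has stored the RNA that the early embryo will use and has almost ceased transcription.

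Total counts were 22008470 and 19805264 in KO libraries, against 26364085 and 25716758 in CTR libraries, and the table held 24077 genes. Levels are CPM, the counts scaled to a common library size with trimmed-mean (TMM) factors, and since transcript lengths were not at hand, levels were compared between genotypes within a gene and never between genes. All 14 oocyte markers, among them Gdf9, Bmp15 and the zona pellucida genes, were counted in each library. Their summed level was 22240 and 32610 CPM in KO replicates 1 and 2, against 32310 and 32030 CPM in CTR replicates 1 and 2, so that KO replicate 1 stood below the other 3 libraries. Markers of theca and stroma summed to 2.78 to 3.27 CPM in KO libraries and 4.28 to 5.67 CPM in CTR libraries. Markers of blood and immune cells summed to 2.04 to 3.15 CPM in KO and 3.48 CPM in each CTR library, with the globin genes at 0 in all 4. The 21 granulosa and cumulus markers summed to 170.4 and 107 CPM in KO replicates 1 and 2, against 108 and 110.0 CPM in CTR replicates 1 and 2, and the excess in KO replicate 1 lay in Nr5a2. The defining granulosa genes Amh and Foxl2 stood at 0.123 CPM or less in every library. Other members stood higher, such as Cyp19a1 with 33.12 and 41.83 CPM in KO oocytes, against 48.02 and 57.99 CPM in CTR oocytes. Of 11 granulosa markers tested, 7 had a log2 change above 0, with a median of 0.321 over the 11. Of the 11 markers 1, Nr2f2, rose, with a call lost without CTR replicate 2 or KO replicate 1. The part of granulosa cells in these levels was not tested. The 11 markers of epiblast and nascent mesoderm summed to 40.4 and 33.3 CPM in KO libraries, against 22.1 and 26.7 CPM in CTR libraries. Of these markers 5 were tested, with a median log2 change of 1.98, and Pou3f1 and Fgf5 rose, while Otx2 and Nodal had no count in any library. Both risen markers are also members of the homeobox and FGF lists, and the part of such cells in the rises was not tested.

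Pcgf1 had 31.4 and 23.7 CPM in KO oocytes, against 1449 and 1143 CPM in CTR oocytes, a log2 change of −5.56 (SE 0.24, edgeR adjusted p = 1.96e-05). Pcgf6 had 159 and 228 CPM in KO oocytes, against 408 and 446 CPM in CTR oocytes, a log2 change of −1.14 (SE 0.19, edgeR adjusted p = 0.0102). Both genes were lower in each KO library than in each CTR library. The residual Pcgf6 level was 0.454 of the CTR level by the fitted fold. Counts were given per gene and not per exon, so reads from exons outside a deletion stay in these values.

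**Figure D1:**
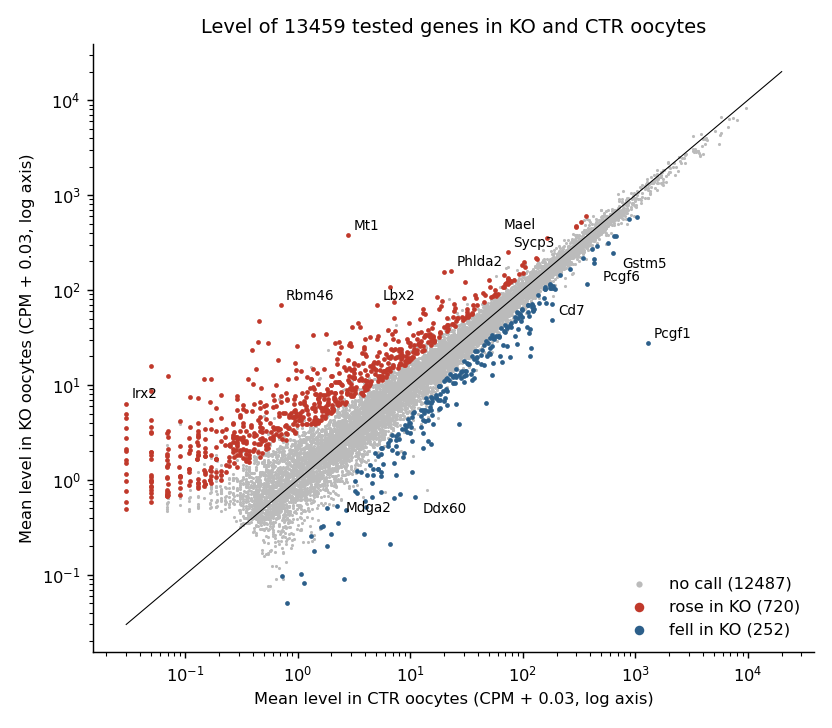
Mean level of each tested gene in KO oocytes (vertical axis) and CTR oocytes (horizontal axis), both as CPM + 0.03 on log axes, with the 720 genes that rose in KO, the 252 that fell and the 12487 with no call. Risen genes lie mostly at the low end of the CTR axis, and fallen genes lie in the middle and upper range.

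More genes rose than fell in KO oocytes, and most of the genes that rose were at low level in CTR oocytes. Of 13459 genes tested with edgeR's quasi-likelihood test, 972 were called (7.22%), of which 720 rose (5.35%) and 252 fell (1.87%), at a Benjamini-Hochberg adjusted p under 0.05, and 2897 had an unadjusted p under 0.05. The genes that rose had a median level of 7.26 CPM in KO oocytes (quartiles 2.96 and 19.9), against 1.49 CPM in CTR oocytes (quartiles 0.291 and 5.90). In CTR oocytes 314 of them (43.6%) averaged below 1 CPM, and in KO oocytes 39 did. The genes that fell had a median of 11.6 CPM in KO oocytes, against 25.3 CPM in CTR oocytes, and 2 of them averaged below 1 CPM in CTR. The called rises were also the larger changes, with 419 of 720 beyond 4-fold, against 49 of 252 called falls. Replicates spread more at low level, where a gene needs a larger fold to be called. The SD of the log2 difference between CTR libraries was 0.903 below 1 CPM and 0.208 at 64 to 256 CPM. Rises and falls were not compared at like level. Without KO replicate 2 the counts were 1078 rises and 951 falls, without KO replicate 1 they were 510 and 272, and without a CTR replicate 547 to 604 and 183 to 220. A set of 337 rises and 104 falls kept the call whichever library was left out.

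The risen genes made up a small part of the oocyte's RNA. Together they took 1.84% and 1.52% of the counts in KO libraries, against 0.649% and 0.643% in CTR libraries. The fallen genes together took 0.970% and 0.926% in KO libraries, against 1.90% and 1.77% in CTR libraries. These sums describe genes that the same test selected and carry no test of their own. Both KO libraries lay above both CTR libraries for 3644 of the tested genes (27.1%) and below them for 3422 (25.4%), so separation of the groups by itself was common in either direction.

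Some genes switched from off to on. By the criterion of below 1 CPM in both CTR libraries and at least 5 CPM in both KO libraries, 31 genes were off in CTR and on in KO, and all 31 were called. In the reverse direction 4 genes, Ddx60, Mdga2, Slc17a6 and Gm15631, were on in CTR and off in KO. With the stricter limit of 10 CPM the counts were 9 and 0, and with 0.5 and 2 CPM they were 65 and 3. The 9 at the stricter limit included Rbm46, Sgk3, a kinase related to AKT, Boll, an RNA-binding protein of the DAZ family, Bid, a pro-apoptotic protein, and Plod2, a collagen lysyl hydroxylase. Kmt2a, the MLL1 methyltransferase of histone H3 lysine 4, had 9.90 and 5.77 CPM in KO oocytes, against 0.0781 and 0.283 CPM in CTR oocytes, and lay among the 31. Its log2 change was 5.41 (SE 0.56, edgeR adjusted p = 0.00142).

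Among called genes ranked by CPM gained instead of fold, metallothionein Mt1 came first. Mt1 had 398 and 356 CPM in KO oocytes, against 3.05 and 2.51 CPM in CTR oocytes, and the groups were far apart. The other genes with the largest gains were already well above 1 CPM in CTR. Pabpn1l, a poly(A)-binding protein of the oocyte, had 630 and 580 CPM in KO oocytes, against 367 in both CTR libraries, a log2 change of 0.72 (SE 0.15, edgeR adjusted p = 0.0209) that lost its call without either CTR replicate. Pthlh, the parathyroid hormone-like hormone, had 201 and 108 CPM in KO oocytes, against 24.7 and 15.5 CPM in CTR oocytes, and Phlda2, an imprinted placental growth regulator, had 181 and 136 CPM, against 24.9 and 21.1 CPM. Sycp3 and Mael, described with the germ-line genes, were also among the 10 largest gains of called genes, with Polr3k, Txnip, Cdk20 and Defb41. Of these, Polr3k, Txnip and Cdk20 lost their call without either CTR replicate, and Defb41 without either KO replicate.

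**Figure D2:**
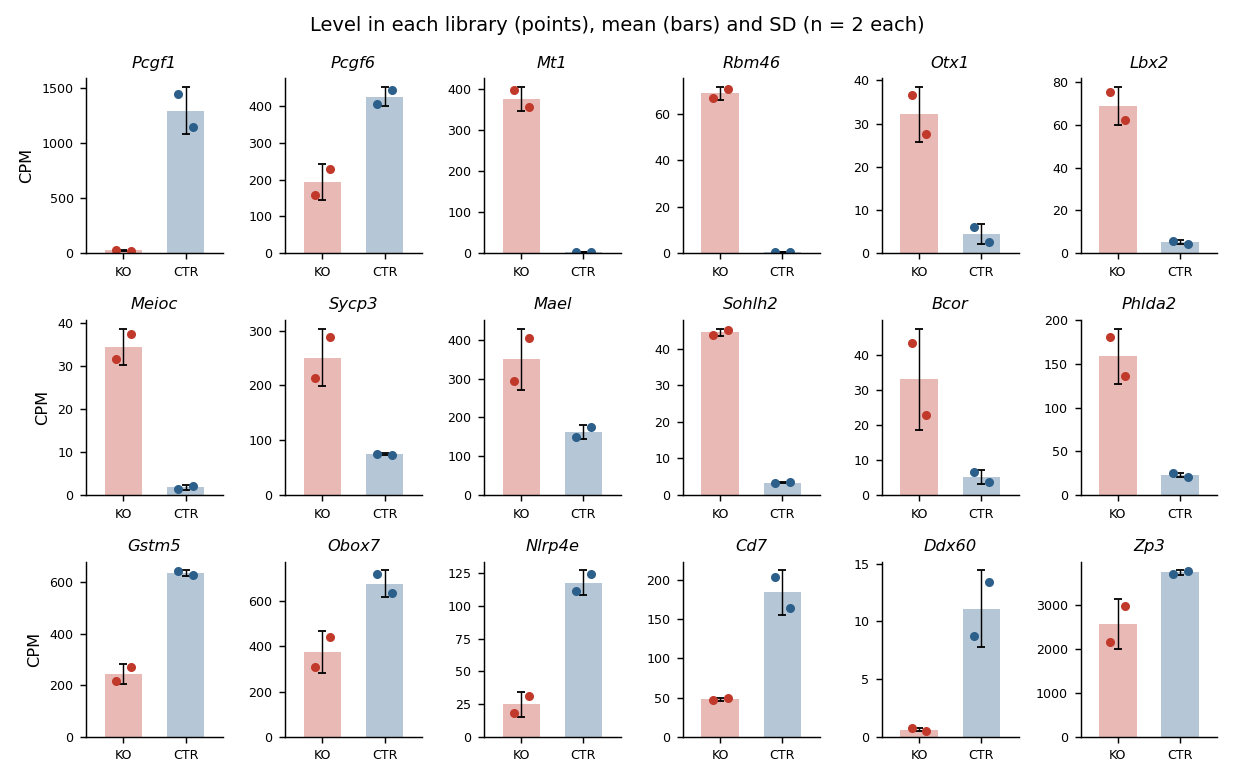
CPM of 18 genes in each library (points), with the mean (bar) and SD (n = 2 each) of KO (left) and CTR (right) oocytes; each panel has its own scale from 0. Pcgf1 and Pcgf6 are the deleted genes, Mt1 to Phlda2 rose, Gstm5 to Ddx60 fell, and Zp3 had no call.

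Patterning transcription factors formed one group of risen genes. Hox genes specify position along the body axis, and 12 of the 39 listed passed the filter on low counts. Of the 12, 7 rose (58.3%, against 5.35% of all tested genes) and 0 fell. The median log2 change was 3.51 over the 12, against 0.0039 over all tested genes. A gene near 0 in CTR passes this filter only through the KO libraries, so counts and medians of such lists are descriptions. Hoxd1 had 10.9 and 6.45 CPM in KO oocytes, against 0 and 0.0404 CPM in CTR oocytes. Hoxd8 had 12.6 and 7.60 CPM in KO oocytes, against 0.508 and 0.243 CPM in CTR oocytes, and was the other Hox gene that went from off to on. Hoxd9, Hoxa10, Hoxa4 and Hoxb1 also rose, each to a mean below 5 CPM. KO replicate 1 was the higher KO library for all 7, and without it 3 Hox genes were called. Of the 39 Hox genes, 7 had no count in any library.

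Homeobox genes outside the Hox clusters gave 20 rises (26.3%, against 5.35% of all tested genes) and 0 falls among 76 tested of 160. Their median log2 change was 0.60. Otx1, a forebrain regulator, had 36.6 and 27.6 CPM in KO oocytes, against 5.98 and 2.71 CPM in CTR oocytes. Irx2, an Iroquois factor, had 8.14 and 4.46 CPM in KO oocytes and no count in CTR oocytes, and was at least 109.5-fold higher in KO when 3 counts over both CTR libraries were taken as the floor. Pou3f1, a neural and epiblast POU factor, likewise had no CTR count and 4.01 and 1.52 CPM in KO oocytes, at least 48.95-fold higher by the same floor. Hmx1, Shox2, Barx1, Lhx5 and Msx2 were further members whose call held without any 1 library. The count was 12 without KO replicate 1 and 24 without KO replicate 2.

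The promoter window of Irx2 is shown because CpG counts differed between risen and fallen genes, as given further on. It runs from 250 bases before a listed start to 50 after it, 5′ to 3′ on the gene's strand. Starts are from RefSeq's annotation of GRCm38.p6 (mm10), and a listed start need not be the first base of the gene. CpG dinucleotides are in capitals. The Irx2 window (chr13:72628570-72628869, + strand) held 25 and lies inside the gene's annotated span, which begins at base 72624430.
Irx2: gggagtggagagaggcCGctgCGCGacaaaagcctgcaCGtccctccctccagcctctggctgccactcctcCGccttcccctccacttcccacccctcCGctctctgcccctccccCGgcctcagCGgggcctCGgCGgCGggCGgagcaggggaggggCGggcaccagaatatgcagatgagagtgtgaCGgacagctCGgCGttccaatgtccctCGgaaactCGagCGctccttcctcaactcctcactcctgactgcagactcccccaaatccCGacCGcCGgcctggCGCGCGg

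Basic helix-loop-helix factors gave 17 rises (36.2%, against 5.35% of all tested genes) and 0 falls among 47 tested of 95. Their median log2 change was 0.40. Sohlh2 and Sohlh1 are germ-cell factors of the early, primordial and primary, follicle stages. Sohlh2 had 43.7 and 45.2 CPM in KO oocytes, against 3.28 and 3.52 CPM in CTR oocytes, a log2 change of 3.71 (SE 0.20, edgeR adjusted p = 8.75e-05). Sohlh1 had 5.07 and 3.35 CPM in KO oocytes, against 0 and 0.0404 CPM in CTR oocytes, a ratio of 217 with a 95% exact counting interval of 38.6 to 8632. Hes6, a member of the HES family of repressors, had 85.5 and 79.7 CPM in KO oocytes, against 30.2 and 30.1 CPM in CTR oocytes. Tcf4, Ascl2, Bhlhe41, Hes1 and Mycl were the other members that held their call without any 1 library, and the list's count was 9 without KO replicate 1.

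Other transcription factor families also held more rises than falls, as did all tested genes, of which 5.35% rose and 1.87% fell. Kruppel-like and SP factors gave 7 rises and 0 falls among 20 tested, and Klf9 had 6.62 and 5.61 CPM in KO oocytes, against 0.430 and 0.162 CPM in CTR oocytes. Klf12 had 2.86 and 3.51 CPM in KO oocytes, against 0.0391 and 0 CPM in CTR oocytes. T-box, GATA, ZIC and SOX factors gave 6 rises and 1 fall among 22 tested, of which Sox30, a testis factor, kept its call without any 1 library; the count of rises was 1 without KO replicate 1. Gata3 fell, with 18.6 and 22.5 CPM in KO oocytes, against 34.3 and 50.2 CPM in CTR oocytes, and lost the call without CTR replicate 2 or KO replicate 1. Genes named Zfp, which encode zinc finger proteins of many kinds, gave 27 rises (8.91%) and 4 falls among 303 tested. Zfp711 and Zfp105 were among the rises, and Zfp708 fell to 25.1 and 28.4 CPM in KO oocytes, against 89.9 and 88.3 CPM in CTR oocytes. Forkhead genes gave 2 rises among 16 tested (12.5%), Foxa3 and, lost without KO replicate 1, Foxq1, and nuclear receptors 4 among 30 (13.3%).

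**Figure D3:**
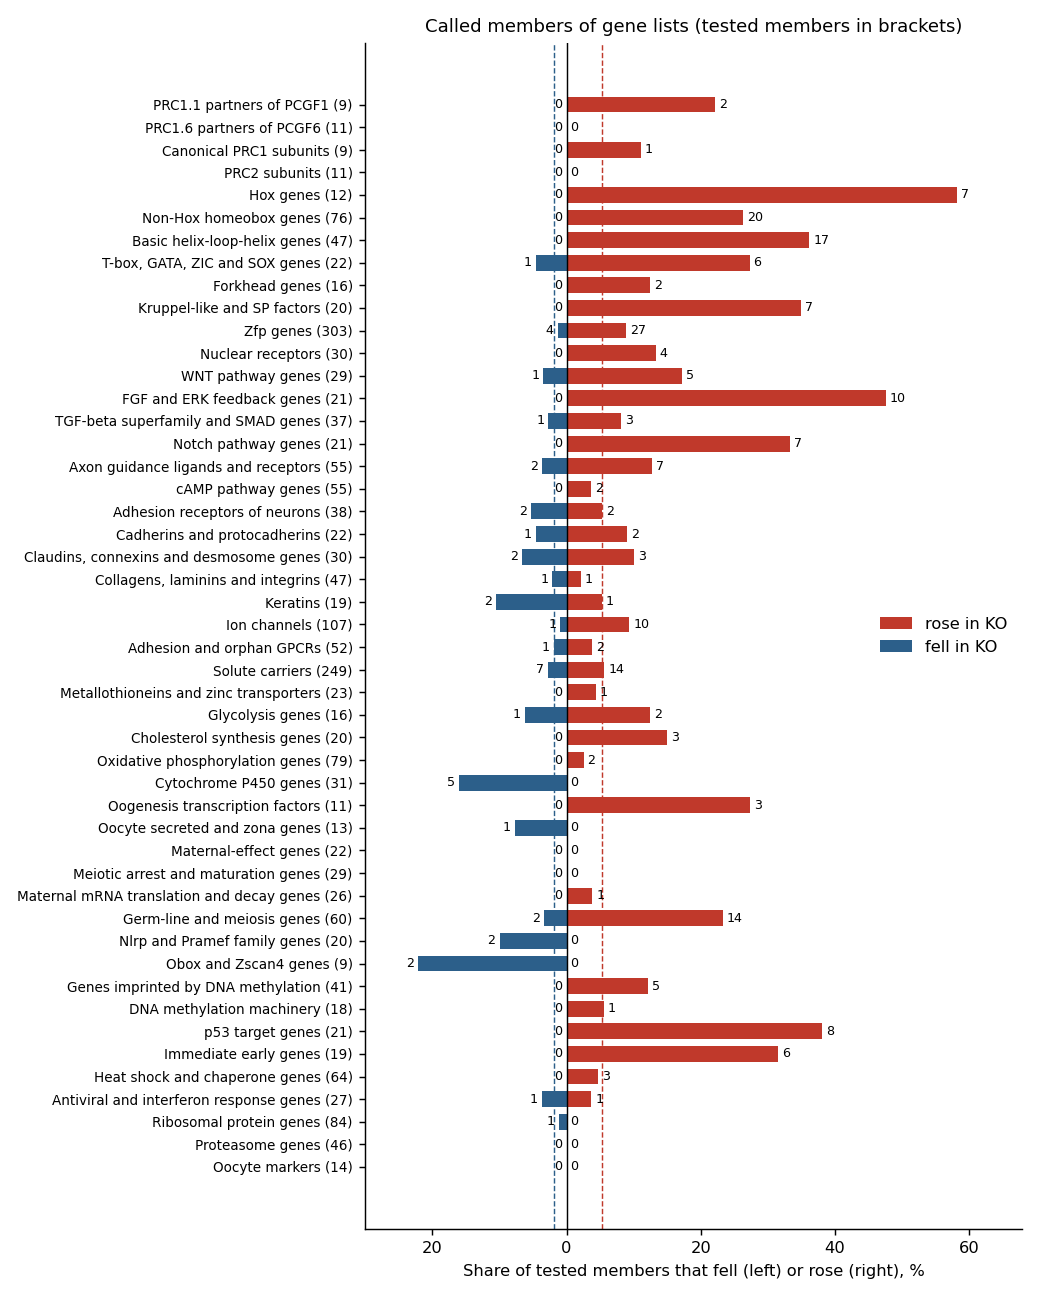
Share of tested members that rose (red bars, to the right) or fell (blue bars, to the left) in KO oocytes, in percent, for the gene lists with at least 9 tested members, markers of other cell types left out, with counts at the bar ends and tested members in brackets. Dashed lines mark the shares over all tested genes, 5.35% for rises and 1.87% for falls; of the lists drawn, Hox genes and FGF and ERK feedback genes had the longest bars to the right, and Obox and Zscan4 genes and cytochrome P450 genes those to the left.

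Some ligands and feedback genes of the FGF pathway rose. The list held 41 genes of the FGF family, FGF receptors and feedback genes of ERK signalling. Of these 21 were tested, 10 rose (47.6%, against 5.35% of all tested genes), 0 fell and 11 had no call. The median log2 change was 0.74. Without any 1 library 5 of the rises held. Among the ligands, Fgf9 had 43.9 and 37.1 CPM in KO oocytes, against 20.2 and 19.7 CPM in CTR oocytes (log2 1.02, SE 0.18, edgeR adjusted p = 0.0126). Fgf16, another ligand, had 3.35 and 3.77 CPM in KO oocytes, against 0.0391 and 0.121 CPM in CTR oocytes. Apart from the ligands, the FGF family member Fgf13 had 2.13 and 1.83 CPM in KO oocytes with no CTR count. Dusp6, the phosphatase that switches off ERK, had 3.43 and 4.40 CPM in KO oocytes, against 0.0781 and 0.121 CPM in CTR oocytes. Spry1, Spred1, Etv5 and Dusp4 also rose but lost the call without at least 1 library, and the list had 6 rises without KO replicate 1 or without CTR replicate 2.

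Notch pathway genes gave 7 rises (33.3%) and 0 falls among 21 tested, where 5.35% of all tested genes rose and 1.87% fell. Hes6 and Hes1, counted above, kept their call without any 1 library, while Hey1, Hes7, Nrarp, Dtx3 and the ligand Dll3 did not, and the count was 3 without KO replicate 1. WNT pathway genes gave 5 rises (17.2%) and 1 fall (3.45%) among 29 tested. The receptors Lgr4 and Fzd7 and the WNT antagonist Kremen2 held without any 1 library, and Kremen2 had 6.13 and 5.35 CPM in KO oocytes, against 0.234 and 0.0808 CPM in CTR oocytes. Of 37 tested genes of the TGF-beta superfamily 3 (8.11%) rose, Bmp7, Smad7 and Smad1, and none of these rises held without KO replicate 1. In that list 1 gene (2.7%) fell, Tgfb3, lost without either CTR replicate. Both shares were near those over all tested genes, 5.35% and 1.87%. Axon guidance genes gave 7 rises (12.7%) and 2 falls (3.64%) among 55. Of these Slit2, a repulsive ligand, and Plxnd1, a semaphorin receptor, held without any 1 library.

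Germ-line and meiosis genes rose in part. Of 68 genes in the list 60 were tested, 14 rose (23.3%) and 2 fell (3.33%), with a median log2 change of 0.28. Over all tested genes 5.35% rose and 1.87% fell. Rbm46, an RNA-binding protein needed for entry into meiosis, had 66.9 and 70.9 CPM in KO oocytes, against 0.664 and 0.687 CPM in CTR oocytes, a log2 change of 6.66 (SE 0.23, edgeR adjusted p = 5.18e-06). Its partner in meiotic entry Meioc had 31.6 and 37.5 CPM in KO oocytes, against 1.41 and 2.10 CPM in CTR oocytes, a log2 change of 4.30 (SE 0.27, edgeR adjusted p = 1.68e-04). For both genes the KO libraries differed little beside the distance to CTR.

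Components of the synaptonemal complex, the scaffold that joins homologous chromosomes, did not move as a unit. Sycp3, of its lateral element, had 213 and 288 CPM in KO oocytes, against 75.5 and 72.7 CPM in CTR oocytes. Sycp1, of its transverse filaments, had 86.5 and 130 CPM in KO oocytes, against 50.3 and 51.4 CPM in CTR oocytes. Sycp2, the partner of Sycp3, fell, with 61.5 and 70.7 CPM in KO oocytes, against 114 and 130 CPM in CTR oocytes (log2 −0.88, SE 0.15, edgeR adjusted p = 0.0115), a call lost without CTR replicate 2. The central element genes Syce3, Tex12 and Syce1 rose, Tex12 with 110 and 140 CPM in KO oocytes, against 75.4 and 77.2 CPM in CTR oocytes. Tex12 lost its call without either CTR replicate and Syce1 without either KO replicate. Mei4, needed for meiotic DNA breaks, fell to 86.4 and 80.0 CPM in KO oocytes, against 166 and 141 CPM in CTR oocytes, a call lost without CTR replicate 1.

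Of the other germ-line genes, Mael, a protein of the piRNA pathway, had 294 and 406 CPM in KO oocytes, against 150 and 176 CPM in CTR oocytes. Ccdc36, Taf7l and Spata22 rose and held without any 1 library, and Mov10l1, Zbtb16 and Hormad2 rose but did not hold. Hormad1 had 9.32 and 37.1 CPM in KO oocytes, against 1.80 and 1.90 CPM in CTR oocytes, and missed the threshold with an adjusted p of 0.0746 in edgeR. The germ-cell genes Dazl, Ddx4 and Tdrd1 were not called, Dazl with 631 and 934 CPM in KO oocytes, against 939 and 1010 CPM in CTR oocytes. Without KO replicate 2, which leaves KO replicate 1 alone, 11 genes of the list fell.

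The promoter windows of 4 risen meiosis genes are shown because PRC1.6 contains MAX with MGA and E2F6, whose known binding motifs are CACGTG (the E-box) and GCGGGA, and they were picked because they hold both. Matches on either strand are in capitals, and the motifs share no overlap in these windows.
Rbm46: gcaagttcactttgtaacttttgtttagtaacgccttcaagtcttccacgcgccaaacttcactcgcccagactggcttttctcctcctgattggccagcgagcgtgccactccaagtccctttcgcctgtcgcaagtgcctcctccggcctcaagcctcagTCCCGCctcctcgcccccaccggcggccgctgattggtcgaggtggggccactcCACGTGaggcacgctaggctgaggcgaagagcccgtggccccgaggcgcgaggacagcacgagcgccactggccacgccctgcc
Sycp3: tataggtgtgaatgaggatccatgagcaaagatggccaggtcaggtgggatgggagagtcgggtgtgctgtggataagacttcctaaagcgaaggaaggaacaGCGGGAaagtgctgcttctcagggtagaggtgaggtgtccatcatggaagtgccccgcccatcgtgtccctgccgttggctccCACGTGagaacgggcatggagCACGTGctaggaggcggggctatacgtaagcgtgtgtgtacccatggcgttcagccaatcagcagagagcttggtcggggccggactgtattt
Sycp1: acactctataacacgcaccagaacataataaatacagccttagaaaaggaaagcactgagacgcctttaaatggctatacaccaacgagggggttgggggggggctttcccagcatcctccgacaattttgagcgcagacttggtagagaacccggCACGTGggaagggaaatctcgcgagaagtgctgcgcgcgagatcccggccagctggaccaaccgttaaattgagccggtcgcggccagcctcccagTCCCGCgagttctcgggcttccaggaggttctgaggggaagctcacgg
Tex12: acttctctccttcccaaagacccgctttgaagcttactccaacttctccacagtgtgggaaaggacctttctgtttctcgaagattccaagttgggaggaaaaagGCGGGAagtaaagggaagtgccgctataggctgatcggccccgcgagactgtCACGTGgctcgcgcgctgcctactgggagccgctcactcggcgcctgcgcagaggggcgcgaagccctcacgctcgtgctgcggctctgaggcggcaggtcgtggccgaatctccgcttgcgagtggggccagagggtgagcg
They lie at chr3:82876434-82876733 (− strand) for Rbm46, chr10:88459337-88459636 (+ strand) for Sycp3, chr3:102936051-102936350 (− strand) for Sycp1 and chr9:50561219-50561518 (− strand) for Tex12. Sycp3 held 2 E-boxes and the other windows 1 each, and every window held 1 GCGGGA or its complement. Among germ-line genes with a window, 7 of the 13 that rose held an E-box (53.8%), against 13 of the 35 tested without a call (37.1%), and 7.24% of all 27025 promoter windows did. GCGGGA stood in 7 of the 13 (53.8%), against 16 of the 35 (45.7%) and 20% of all windows. Both motifs stood in 5 of the 13 (38.5%), the 4 shown and Mael, against 6 of the 35 (17.1%), and the risen genes Meioc, Syce1, Ccdc36 and Hormad2 held no E-box. A match describes letters in a window and is not a measured binding site.

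Imprinted genes gave 5 rises and 0 falls among 41 tested of those imprinted by DNA methylation, and all 5 rises held without any 1 library. Phlda2 and Ascl2, from the same imprinted domain on chromosome 7, Cd81 from that domain, Igf2, a growth factor, and Zdbf2 were the 5. They were 12.2% of the 41, against rises in 5.35% of all tested genes. Zdbf2 had 16.8 and 16.9 CPM in KO oocytes, against 0.781 and 1.05 CPM in CTR oocytes. Of 6 genes whose imprinting rests on maternal H3K27me3, 2 passed the filter. Sfmbt2, a Polycomb-related protein with a role in the placenta, rose, with 2.29 and 1.52 CPM in KO oocytes, against 0.117 and 0.0404 CPM in CTR oocytes (log2 4.50, SE 0.68, edgeR adjusted p = 0.00687). Gab1 had 1.72 and 0.944 CPM in KO oocytes, against 0.234 and 0.445 CPM in CTR oocytes, and was not called. Jade1, Smoc1 and Slc38a4 were too low to test.

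Mt1 stood alone in its family. It was the 1 called gene among 23 tested metallothioneins and zinc transporters, with a log2 change of 7.08 (SE 0.20, edgeR adjusted p = 2.06e-06). Its neighbour Mt2 had 1.15 and 0.419 CPM in KO oocytes, against 0.469 and 0.647 CPM in CTR oocytes. The zinc exporter Slc30a1 had 13.5 and 10.4 CPM in KO oocytes, against 15.5 and 15.1 CPM in CTR oocytes, and was not called. Mt1 and Mt2 are known targets of the metal-sensing factor MTF1. The pattern TGCNCNC, with N for any base, was searched as a loose form of the core of its response element. The windows of both genes are set side by side with matches in capitals.
Mt1: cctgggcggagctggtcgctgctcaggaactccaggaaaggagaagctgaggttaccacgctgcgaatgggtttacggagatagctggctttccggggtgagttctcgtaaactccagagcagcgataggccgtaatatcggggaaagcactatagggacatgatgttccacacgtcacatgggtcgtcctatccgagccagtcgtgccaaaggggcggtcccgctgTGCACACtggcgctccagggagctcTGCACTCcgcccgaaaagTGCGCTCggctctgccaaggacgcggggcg
Mt2: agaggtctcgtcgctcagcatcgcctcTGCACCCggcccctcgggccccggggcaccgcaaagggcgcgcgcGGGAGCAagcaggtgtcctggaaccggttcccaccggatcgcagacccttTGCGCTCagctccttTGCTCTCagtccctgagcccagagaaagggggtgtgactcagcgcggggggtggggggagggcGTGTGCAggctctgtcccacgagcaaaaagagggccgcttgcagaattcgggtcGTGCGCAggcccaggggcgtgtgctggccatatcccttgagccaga
The Mt1 window (chr8:94178839-94179138, + strand) held 3 matches on either strand and the Mt2 window (chr8:94172368-94172667, + strand) 6. This loose pattern stood in 50.4% of all promoter windows, so its presence separates few genes, and a match need not be a response element.

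Most metabolic and transport genes had no call. Among 79 tested genes of oxidative phosphorylation 2 rose (2.53%, against 5.35% of all tested genes) and 0 fell. The risen genes were Cox8c, a testis form of a cytochrome oxidase subunit, and Atp5g3, a subunit of the ATP synthase ring. The log2 change was above 0 for 19 of the 79, against 50.3% of all tested genes, with a median of −0.103. KO replicate 1 was the lowest library for 47 of them. The list summed to 15660 and 17150 CPM in KO replicates 1 and 2, against 17460 and 17310 CPM in CTR replicates 1 and 2. Cox8c had 21.0 and 21.2 CPM in KO oocytes, against 3.13 and 4.81 CPM in CTR oocytes. In glycolysis Tpi1 and hexokinase Hk2 rose among 16 tested, and Pkm fell with a call lost without either CTR replicate or KO replicate 1. Tpi1 had 196 and 195 CPM in KO oocytes, against 106 and 100.1 CPM in CTR oocytes. Solute carriers gave 14 rises (5.62%) and 7 falls (2.81%) among 249 tested, near the shares over all genes. Ion channels gave 10 rises (9.35%) and 1 fall (0.935%) among 107, where 5.35% and 1.87% of all tested genes rose and fell. Cytochrome P450 genes had the reverse pattern, with 0 rises and 5 falls among 31 tested, of which Cyp2c69, Cyp7b1 and Cyp2f2 held without any 1 library. The 5 falls were 16.1% of the 31. Cyp2c69 had 1.31 and 1.05 CPM in KO oocytes, against 11.1 and 9.70 CPM in CTR oocytes, and its count may share reads with other Cyp2c genes.

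Stress genes rose in some lists and not in others. Of 21 tested p53 targets 8 rose (38.1%) and 0 fell, with a median log2 change of 0.79. Over all tested genes 5.35% rose and 1.87% fell. Btg2, an antiproliferative gene, had 47.4 and 32.5 CPM in KO oocytes, against 15.5 and 15.6 CPM in CTR oocytes (log2 1.36, SE 0.22, edgeR adjusted p = 0.00915). Plk3 held as well without any 1 library, while Apaf1, Plk2, Sesn1, Gadd45a, Cdkn1a and Trp53inp1 did not, and without CTR replicate 1 the count was 3. Immediate early genes gave 6 rises and 0 falls among 19 tested, with Gadd45b, Nr4a2, Fosl1 and Jund holding without any 1 library. The 6 rises were 31.6% of the immediate early genes tested. Heat shock and chaperone genes gave 3 rises among 64 tested (4.69%), near the share of 5.35% over all tested genes. Of 84 tested ribosomal protein genes 0 rose and 1, Rps4l, fell with a call lost without CTR replicate 2. Of 46 proteasome genes 0 were called in edgeR, 3 were higher and 1 lower at an unadjusted p under 0.05, and DESeq2 called 1.

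The falls were fewer, and 211 of the 252 lay in none of the gene lists, as did 517 of the 720 rises. Gstm5, a glutathione transferase, lost the most CPM after Pcgf1 among called genes once symbols that are clone names were left out, with 217 and 272 CPM in KO oocytes, against 643 and 628 CPM in CTR oocytes (log2 −1.38, SE 0.16, edgeR adjusted p = 0.00258). Cd7, a surface glycoprotein, had 46.6 and 48.9 CPM in KO oocytes, against 204 and 164 CPM in CTR oocytes. Slc9b1, a sodium-proton exchanger, had 62.1 and 80.7 CPM in KO oocytes, against 179 and 185 CPM in CTR oocytes. Each of these 3 held without any 1 library. Atrx, a chromatin remodeller, had 247 and 373 CPM in KO oocytes, against 546 and 588 CPM in CTR oocytes (log2 −0.87, SE 0.20, edgeR adjusted p = 0.0398), and lost its call without either CTR replicate. So did Gnrh1, Oog2 and B4galt4, also among the 10 largest losses by that rule.

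Oocyte gene families with many near-identical copies held several of the falls. Nlrp4e had 17.9 and 31.5 CPM in KO oocytes, against 111 and 125 CPM in CTR oocytes, a log2 change of −2.26 (SE 0.26, edgeR adjusted p = 0.00348). Obox7, a homeobox gene of the oocyte, had 308 and 440 CPM in KO oocytes, against 719 and 636 CPM in CTR oocytes, a call lost without CTR replicate 1. Oog2, of the Pramef family, had 311 and 440 CPM, against 677 and 616 CPM. Zscan4d, of a family active in early embryos, had 3.15 and 1.94 CPM in KO oocytes, against 10.2 and 18.3 CPM in CTR oocytes. Nlrp and Pramef genes gave 0 rises and 2 falls (10%) among 20 tested, and Obox and Zscan4 genes 0 rises and 2 falls (22.2%) among 9. Over all tested genes 1.87% fell. The 33 listed Nlrp and Pramef genes summed to 11900 and 24670 CPM in KO replicates 1 and 2. In CTR replicates 1 and 2 they summed to 22220 and 22520 CPM. KO replicate 1 was the lowest library for 16 of the 20, and for 4 of the 9 Obox and Zscan4 genes. The labels do not say how reads that match several copies were counted, so single members of these families are uncertain.

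Windows of Obox7 (chr7:14659458-14659757, + strand) and Oog2 (chr4:144190467-144190766, + strand) are printed as examples of fallen genes with few CpGs, again with CpG in capitals. Each held 1.
Obox7: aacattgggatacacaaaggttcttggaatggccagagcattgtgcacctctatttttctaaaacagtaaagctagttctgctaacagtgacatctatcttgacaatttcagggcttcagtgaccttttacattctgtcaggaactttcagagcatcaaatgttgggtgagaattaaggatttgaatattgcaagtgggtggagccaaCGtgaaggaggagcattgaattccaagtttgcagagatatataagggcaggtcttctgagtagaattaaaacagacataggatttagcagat
Oog2: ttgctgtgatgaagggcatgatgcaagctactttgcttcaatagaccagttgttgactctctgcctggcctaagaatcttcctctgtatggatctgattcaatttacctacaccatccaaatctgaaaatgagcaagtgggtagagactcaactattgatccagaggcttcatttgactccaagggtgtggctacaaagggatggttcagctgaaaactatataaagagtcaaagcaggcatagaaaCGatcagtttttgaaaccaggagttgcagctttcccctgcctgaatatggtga

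Genes that define the fully grown oocyte were largely without a call. Among 22 maternal-effect genes, 29 genes of meiotic arrest and maturation and the 14 oocyte markers 0 rose and 0 fell in edgeR. Over all tested genes 5.35% rose and 1.87% fell, so few calls would be due in lists of this size. The log2 change was above 0 for 6, 11 and 2 of these genes, against 50.3% of all tested genes. Their median log2 changes were −0.072, −0.064 and −0.19. At an unadjusted p under 0.05 there were 3 maternal-effect genes, 2 maturation genes and 1 marker, and DESeq2 called 1 gene of these lists, a maturation gene that rose. Of 13 secreted and zona genes 1 fell, Zp3r, a zona-binding protein known from sperm, with a call lost without CTR replicate 2 or KO replicate 1. Without KO replicate 2 the same lists had 8, 4, 9 and 6 falls, and KO replicate 1 had the lowest level of the 4 libraries for 10 of the 14 markers. Zp2 had 1537 and 3849 CPM in KO replicates 1 and 2, against 4132 and 3907 CPM in CTR replicates 1 and 2. Zp3 had 2159 and 2972 CPM in KO oocytes, against 3703 and 3771 CPM in CTR oocytes, and was not called, with an adjusted p of 0.167 in edgeR. Nobox and Lhx8, transcription factors of the growing oocyte, differed less, Nobox with 471 and 431 CPM in KO oocytes, against 507 and 444 CPM in CTR oocytes. In bulk libraries a lower level per oocyte and fewer oocytes with the RNA cannot be told apart.

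Other Polycomb genes changed in places. Of 9 PRC1.1 partners of PCGF1, Bcor and Bcorl1 rose (22.2%, against 5.35% of all tested genes) and 0 fell. Bcor had 43.3 and 22.7 CPM in KO oocytes, against 6.52 and 3.72 CPM in CTR oocytes (log2 2.69, SE 0.40, edgeR adjusted p = 0.0107). Bcorl1 rose with a call that was lost without CTR replicate 2 or KO replicate 1. Kdm2b, the subunit that binds CpG islands, had 76.6 and 47.2 CPM in KO oocytes, against 46.1 and 36.2 CPM in CTR oocytes, and was not called. Of 11 tested partners of PCGF6 in PRC1.6 and 11 PRC2 genes 0 were called in edgeR or DESeq2, with 0 and 3 at an unadjusted p under 0.05 in edgeR. Pcgf5, a paralog in another PRC1 variant, had 34.9 and 29.5 CPM in KO oocytes, against 15.75 and 16.04 CPM in CTR oocytes, a call lost without either CTR replicate.

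The 2 KO libraries differed more from each other than the 2 CTR libraries did over all tested genes. Among the 720 risen genes 64 differed by over 2-fold between KO libraries and 76 between CTR libraries. Among the 252 fallen genes these counts were 11 and 3. Both sets were selected by a test that favours libraries close together within a genotype, and most risen genes were at low level in CTR. These counts are therefore descriptions and cannot compare the spread of the genotypes. Over all tested genes the SD of the log2 difference was 0.583 between KO libraries and 0.507 between CTR libraries. Among genes of 256 CPM and over it was 0.326 between KO and 0.166 between CTR libraries, where 17 genes differed by over 2-fold in KO and 2 in CTR. Among the risen genes 480 of 720 (66.7%) were higher in KO replicate 1 than in KO replicate 2, while 358 (49.7%) were higher in CTR replicate 1 than in CTR replicate 2. Among uncalled genes 52.4% were higher in KO replicate 1. All tested genes of low level leaned the same way: the median log2 difference of KO replicate 1 minus KO replicate 2 was 0.271 over all tested genes below 1 CPM and 0.199 at 1 to 4 CPM, against 0.189 over the risen genes. The median distance of the risen genes to the CTR mean was 2.27 in KO replicate 1 and 1.98 in KO replicate 2 on the log2 scale. The fallen genes were even, at −1.24 and −1.21. No called gene had overlapping groups. With 2 libraries a genotype a call nearly requires this, and 52.5% of all tested genes had groups apart.

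**Figure D4:**
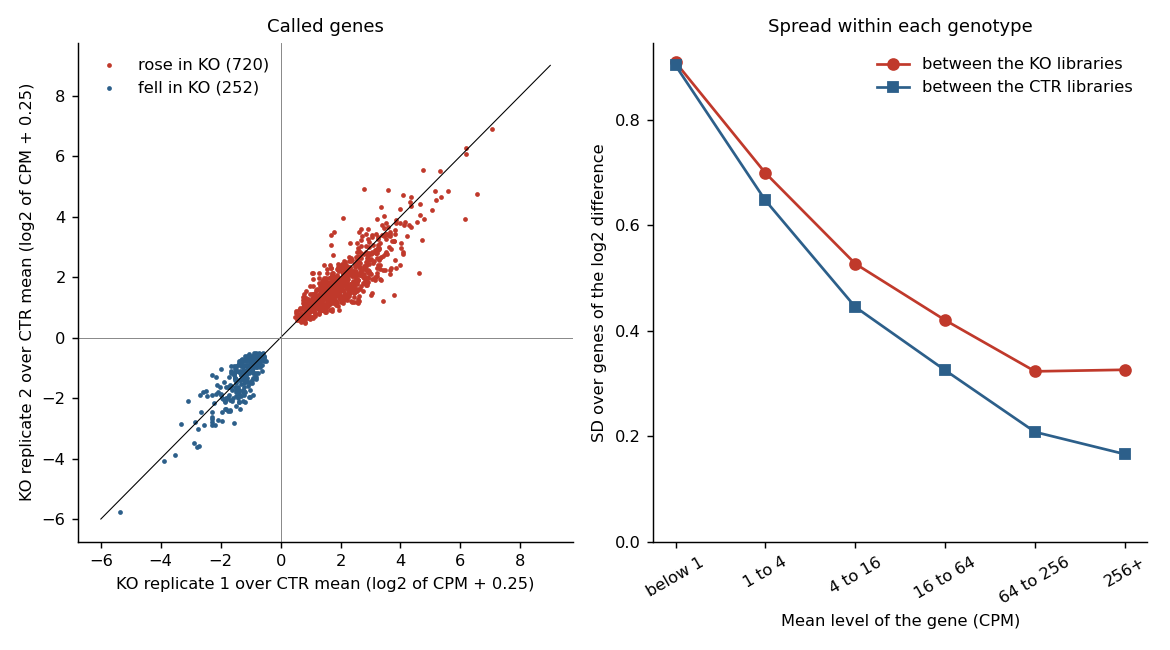
Left, log2 ratio of KO replicate 1 (horizontal axis) and KO replicate 2 (vertical axis) over the CTR mean for the called genes, with a pseudocount of 0.25 CPM and the line of equality. Right, SD over genes of the log2 difference between the KO libraries and between the CTR libraries, by mean level; the KO line lies above the CTR line at every level, 0.326 against 0.166 at 256 CPM and over.

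Some differences between replicates were far larger. Of 7455 genes with a mean of at least 10 CPM, 21 differed by over 4-fold between KO libraries and 16 between CTR libraries. In 7 of them the same replicate number was high in both genotypes. Pnpla3, a lipase-like protein of lipid droplets, had 2.04 and 209.8 CPM in KO replicates 1 and 2, against 2.07 and 250.2 CPM in CTR replicates 1 and 2. Rnaset2b, a ribonuclease, had 70.5 and 0.681 CPM in KO replicates 1 and 2, against 67.3 and 0.768 CPM in CTR replicates 1 and 2. The others were Atxn10, Tmem242, A930015D03Rik, Manba and Khdrbs1. These 7 were not called between genotypes, and they separate the libraries by replicate number. A further 11 differed by over 4-fold between KO libraries and by at most 2-fold between CTR libraries. Pxdn, a matrix peroxidase, had 29.7 and 0.210 CPM in KO replicates 1 and 2, against 9.81 and 6.95 CPM in CTR replicates 1 and 2. Bfsp1, a lens filament protein, had 1.31 and 55.9 CPM in KO replicates 1 and 2, against 54.2 and 52.0 CPM in CTR replicates 1 and 2. What sets these libraries apart was not tested.

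Called genes lay on every autosome and on the X chromosome. The X chromosome had 40 rises among 481 tested (8.32%) and 13 falls (2.7%), and rises on the autosomes ranged from 3.18% on chromosome 5 to 6.81% on chromosome 16. Lbx2, a homeobox gene 5.51 kb from the end of Pcgf1 (chr6:83077552-83080855), had 75.3 and 62.5 CPM in KO oocytes, against 5.70 and 4.45 CPM in CTR oocytes (log2 3.76, SE 0.22, edgeR adjusted p = 1.14e-04). Within 0.5 Mb of Pcgf1 22 other genes were tested, of which 3, Lbx2, the semaphorin Sema4f and Hk2, rose and 0 fell, Sema4f with a call lost without KO replicate 1. The 3 rises were 13.6% of the 22. Within 0.5 Mb of Pcgf6 (chr19:47033617-47050939) 12 genes were tested and 0 were called. Out to 10 Mb, 7 of 124 genes rose (5.65%) and 4 fell (3.23%) around Pcgf1. Around Pcgf6 7 of 139 rose (5.04%) and 2 fell (1.44%). These shares were near those over all tested genes, 5.35% and 1.87%. Which sequences beside the deletions differ between the genotypes is not given, so an effect of the altered locus on Lbx2 and an effect of the lost protein cannot be told apart.

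By annotated class, protein-coding genes gave 708 rises (5.62%) and 215 falls (1.71%) among 12589 tested. Long noncoding RNAs went the other way, with 12 rises (1.61%) and 28 falls (3.75%) among 747. Transcribed pseudogenes gave 0 rises and 9 falls (9.18%) among 98. The libraries carry no strand information, so RNAs that overlap a gene on the other strand share its reads.

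Promoters of the genes that fell held few CpGs, and those of the genes that rose held slightly more than those of uncalled genes. The median number of CpGs in the promoter window was 22 for risen genes (quartiles 14 and 29, 579 of 720 with a window). It was 6 for fallen genes (quartiles 3 and 15.75, 190 of 252 with a window). Tested genes without a call had a median of 20, and those without a call and under 5 CPM in CTR oocytes a median of 15. At least 10 CpGs stood in 84.8% of windows of risen genes, 36.8% of fallen genes and 76.1% of uncalled genes. Among genes under 5 CPM in CTR the shares were 83.7% for risen and 63.3% for uncalled genes. An E-box stood in 13% of windows of risen genes, 5.26% of fallen genes and 9.69% of uncalled genes. GCGGGA stood in 41.5%, 19.5% and 33.4% of these windows. Motifs with CG letters follow the base composition of a window, which was not balanced between the groups, with a median GC content of 63.3% for risen, 51.7% for fallen and 60% for uncalled genes.

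**Figure D5:**
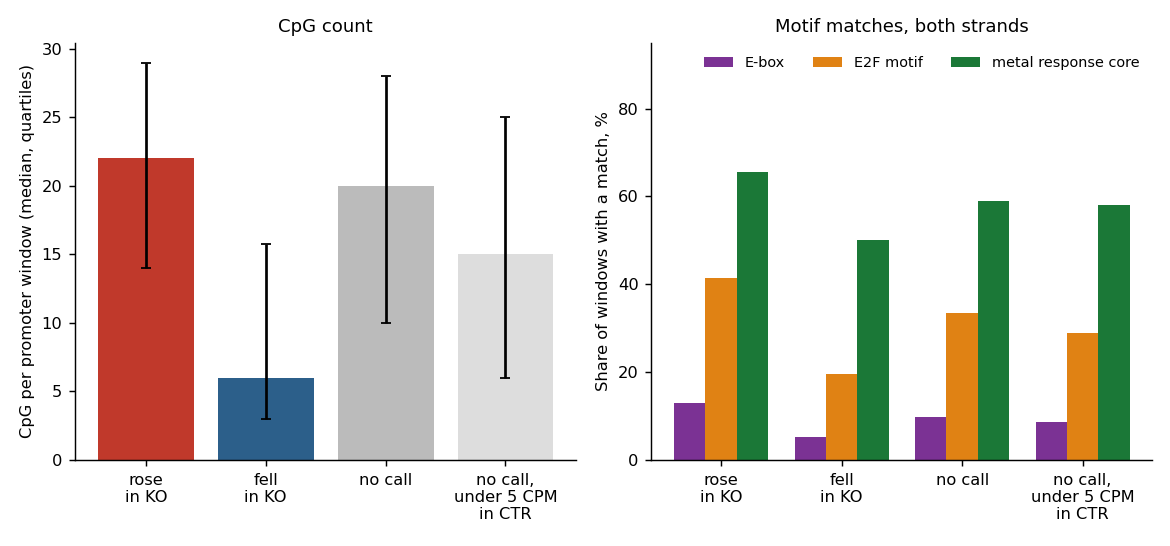
Left, median number of CpGs in the 300-base promoter window with quartiles, for genes that rose, fell, had no call, and had no call with under 5 CPM in CTR. Right, share of windows in percent that hold each motif on either strand; fallen genes have the fewest CpGs, with a median of 6, and the lowest bars for all 3 motifs.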

How the data were processed

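The authors deposited raw counts per gene for the 4 oocyte libraries in 1 table, per the file headers. Libraries were made from polyA RNA with SMART-Seq v4 and Nextera XT, per the labels' protocols, and carry no strand information. STAR 2.7.3 and RSEM 1.3.1 are among the tools in the submitters' processing notes, with the build mm10; which tool made the counts, and on which annotation, was not given in the sources used here. A floor of 3 counts was 0.117 to 0.157 CPM, and intervals (95%) and floors cover counting error only. Counts were compared with edgeR 4.0.16 (TMM, filterByExpr, robust quasi-likelihood F test), Benjamini-Hochberg adjusted over 13459 genes, called under 0.05; 5455 genes had no count. DESeq2 1.42.0 was an alternative. On simulated counts for this comparison (13265 genes) 56 of 100 genes changed 2-fold and 99 of 100 changed 4-fold were called, with 16 of 13259 unchanged genes. The changed genes were drawn only from those with a mean above 5 CPM, so these counts do not cover genes of lower level. RefSeq names matched 23975 genes by symbol, 81 by synonym and left 21 unmatched; the first listed promoter window of a gene was used. A leave-out assumes that the lone library varies like the other group. The text names the deleted genes, the 10 called genes with the largest gain and loss in CPM and in log2 (for log2, at least 5 CPM and groups apart; clone names left out), up to 5 called members of a list with the smallest p, and the 10 genes of at least 10 CPM that differ most between KO libraries; further members of a list, the switched genes and the neighbours of Pcgf1 and Pcgf6 were added after their values were seen. Members, lists and tests were chosen with earlier results of these data known, and the homeobox, helix-loop-helix, FGF and heat shock lists were trimmed to family members, and a histone list was dropped, after values were seen. Other libraries of the series were not used here. A few items are not reported here.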

Additional observations from a re-analysis of the deposited data

How the results depend on the processing

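No named gene's called direction reversed under any alternative that tested it. Pcgf1 and Pcgf6 kept their calls in each of these, the 2-fold test aside, which was read only as counts. Against 720 rises and 252 falls, 1104 and 526 were called with no low-count filter, 1292 and 728 with the replicate number as a block, and 241 and 30 in a test against a 2-fold change. Leaving out 1 library gave 510 to 1078 rises and 183 to 951 falls. Other settings gave 645 to 822 rises and 216 to 373 falls. The share of rises among the calls was 74.1% in the main comparison, 64% with the block, 67.7% with no filter and 53.1% without KO replicate 2. The cause of these moves was not tested. Same-numbered libraries deviated together (r = 0.251 over genes, which are not replicates), but with 2 pairs and no label for it the numbers were not taken as pairing; all 972 calls were also made with the block. With the limits at 0.5 and 2 CPM, 65 genes were off in CTR and on in KO and 3 the reverse, and with 10 CPM 9 and 0. Another scaling shifted the median log2 change by −0.0068 (DESeq2 size factors) and 0.035 (upper quartile). With 2 libraries a genotype, changes under 2-fold are often missed.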
